A study of Arabidopsis thaliana with 6 samples.

Results

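The nucleus of Arabidopsis thaliana encodes most proteins of the light-harvesting antennae, the outer subunits of both photosystems, the small subunit of Rubisco and the Rubisco activase. The 44 genes described here are these genes, chosen by locus tag and grouped into 7 sets by complex: 4 genes of the photosystem I antenna, 9 of the major and 5 of the minor antenna of photosystem II, 12 of the photosystem I core, 5 of the oxygen-evolving complex, 4 small subunits of photosystem II, and 5 of Rubisco and its activase. All 44 passed the filter on low values, among 26551 loci with values and 18813 that were tested. RNA came from whole 6-day-old seedlings of the ecotype Col-0. The DMMTA group had 15 µM DMMTA (dimethylmonothioarsenate, a methylated and thiolated arsenic compound) added for 6 h, and the control group had none. Seedlings of both groups were grown under long days (16 h light, 8 h dark) in liquid medium shaken at 75 rpm and renewed on day 5. Each group held 3 libraries, called biological replicates by the labels. The labels do not say whether these came from separate cultures, so the p-values measure the spread between these samples.

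Light energy is collected by pigment-binding LHCA and LHCB proteins and passed to photosystem I and photosystem II, which drive electrons from water through the thylakoid membrane. Rubisco, assembled from a plastid-encoded large and a nuclear-encoded small subunit, then fixes carbon dioxide, and its activase frees blocked active sites. The nuclear genes are among the most strongly transcribed of green tissue, and their transcripts are known to respond to light, the clock and signals from the plastid.

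The files give no counts, and the depth estimated from the steps between low values was 66100000 to 110000000 reads in the DMMTA libraries and 72400000 to 135000000 in the control libraries. Replicate 3 had the lowest estimate in both groups, 66100000 reads in DMMTA and 72400000 in control. Levels are in TPM, computed from the deposited RPKM values summed per locus, so levels of different genes are compared per length. Differences are log2 fold changes, DMMTA over control, on the log2(TPM + 0.5) scale, with SE, and every difference or fitted value below is on that scale. A gene was called when its limma adjusted p (Benjamini-Hochberg, over all 18813 loci) was under 0.05. By that rule 3273 loci were higher and 1979 lower in DMMTA. These counts were 2076 and 1132 without DMMTA replicate 3, 2181 higher without DMMTA replicate 2, and 1843 and 847 without both replicate 3 libraries.

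After 6 h most transcripts of the photosynthetic machinery did not pass the test of a difference from control, and no fitted difference reached 2-fold. LHCB2.1, a major antenna gene, rose, RBCS1B, a Rubisco small subunit gene, and RCA, the Rubisco activase gene, fell, and the other 41 did not pass the test. Each of the 3 calls was lost in 4 to 6 alternative settings, given with the gene. The 3 calls are 6.82% of the 44 genes, against a background of 27.9% of all loci tested. Among the 85 loci outside the 44 with a mean of at least 1000 TPM, 24.7% were called. An unadjusted p under 0.05 was found for 4 of the 44 genes, and for 39.9% of all loci. In bulk tissue, fewer cells of a type and less RNA per cell cannot be told apart.

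The fitted differences of the 44 genes ran between -0.58 and 0.51 (log2), with a median of -0.03, beside a median of 0.04 over all loci. With 1 library left out in turn the median of the 44 genes ran between -0.07 and 0.04. The median size of the difference, without its sign, was 0.09 for the 44 genes and 0.26 for all loci. A missed threshold does not show that groups are alike, so the intervals matter here. The 95% interval of the difference lay within 2-fold either way for all 44 genes, against 79.6% of all loci, and within 1.5-fold for 38 of 44, against 49.2% of all loci. The SE was also smaller, with a median of 0.11 for the 44 genes and 0.14 for all loci. The 44 genes are highly expressed, and for intervals, SE and overlap the background was all loci tested, not loci of like level. The part of level in these contrasts was not tested.

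**Figure D1:**
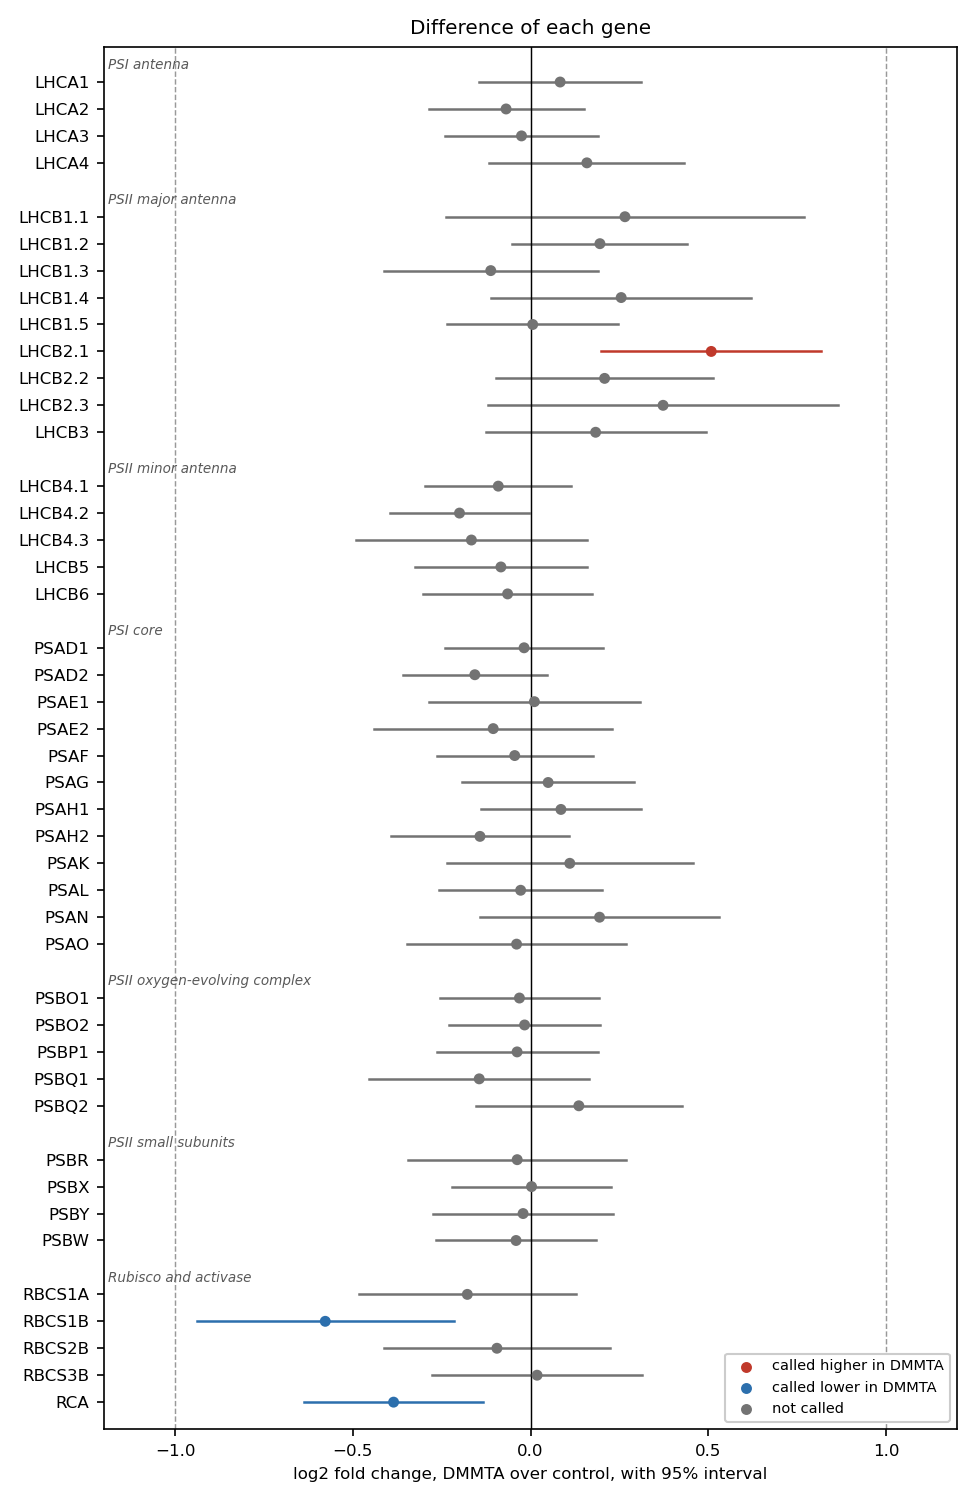
Log2 fold change, DMMTA over control, of each of the 44 genes with its 95% interval (n = 3 libraries per group), grouped by complex. The dashed lines mark a 2-fold difference either way, and every interval lies between them. The 3 coloured genes, LHCB2.1, RBCS1B and RCA, passed the limma test.

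In 7 of the 44 genes (15.9%) the DMMTA and control libraries did not overlap, against 46.5% of all loci. LHCA1 and LHCB2.1 were above control in every DMMTA library, where the background is 27.8%. LHCB4.1, LHCB4.2, PSAD2, RBCS1B and RCA were below control in every DMMTA library, where the background is 18.6%. After median-of-ratios scaling of the same values LHCA1 and PSAD2 overlapped and RBCS1A did not.

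The 44 genes were highly expressed. RBCS1A had the highest mean of all loci, 26 of the 100 highest loci were among the 44, and 30 of the 115 loci with a mean of at least 1000 TPM were. The lowest of the 44 was LHCB4.3, at 12.9 ± 1.53 TPM in DMMTA and 14.6 ± 2.01 TPM in control (SD, n = 3 each).

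Libraries of a group differed together across these genes. DMMTA replicate 2 was the lowest of its group in 36 of 44 genes, and control replicate 2 the lowest of its group in 33. DMMTA replicate 3 was the highest of its group in 23 genes and control replicate 3 in 30. No such counts were made over all loci, so whether this is particular to the 44 genes was not tested. Replicate 2 had the highest depth estimate in both groups and replicate 3 the lowest. The median coefficient of variation of the 44 genes was 6.53% in DMMTA and 9.13% in control, against 8.99% in DMMTA and 12.7% in control over all loci tested, which were not matched for level.

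**Figure D2:**
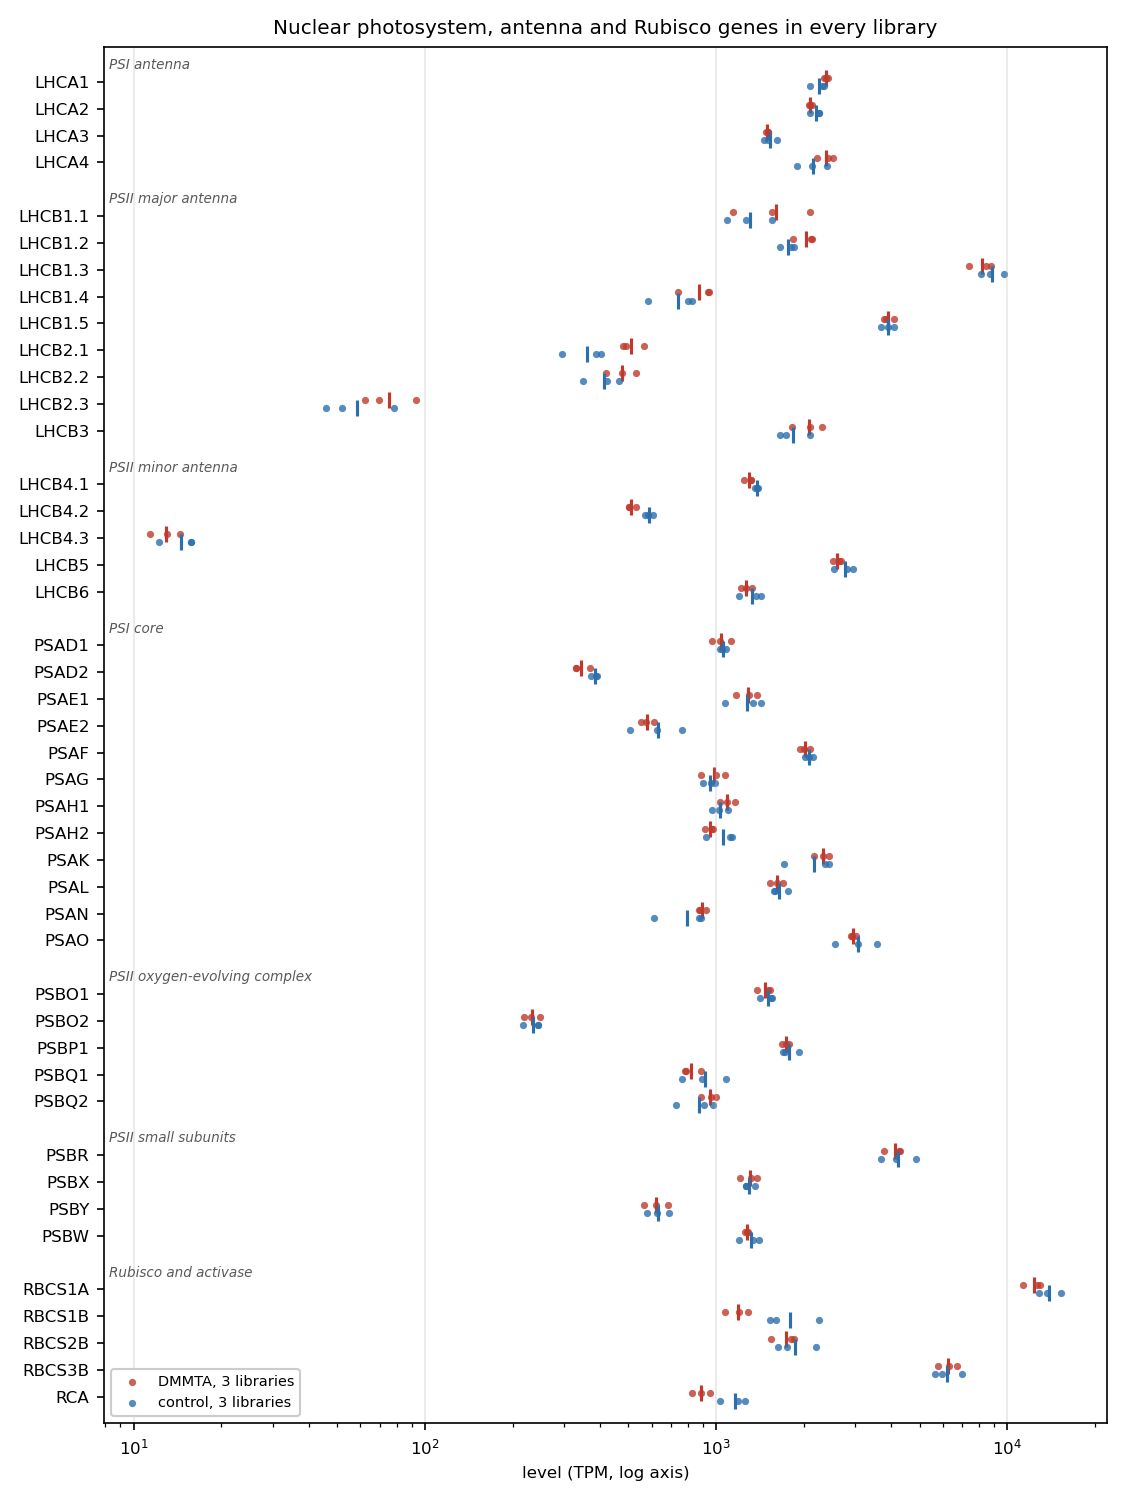
Level of each of the 44 genes in every library, in TPM on a log axis, by complex. Points are libraries (3 DMMTA, 3 control) and the vertical ticks are group means. DMMTA means lie between 12.9 TPM for LHCB4.3 and 12314 TPM for RBCS1A, while the DMMTA and control points of a gene lie close together or overlap.

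The photosystem I antenna genes LHCA1 to LHCA4 encode the proteins bound along a side of the photosystem I core. None of the 4 was called, and their differences had a median of 0.03 (-0.02 after median-of-ratios scaling, and -0.01 without control replicate 2). LHCA1 (AT3G54890), the highest of the 4 by the mean over all libraries, had 2423, 2339.7 and 2376 TPM in DMMTA and 2338, 2098 and 2308 TPM in control. The groups were close but did not overlap, and the difference was 0.08 ± 0.10 SE (adjusted p = 0.567). LHCA4 (AT3G47470) had the largest fitted value, 0.16 ± 0.12 SE (adjusted p = 0.358), with 2387 ± 157 TPM in DMMTA and 2145 ± 248 TPM in control (SD, n = 3 each). The 3 DMMTA libraries lay near each other for LHCA2 and LHCA3, with coefficients of variation of 1.03% and 0.957%, against 4.13% and 5.49% in control.

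The major antenna of photosystem II is a trimer built from the LHCB1, LHCB2 and LHCB3 proteins, and it binds much of the chlorophyll of leaves. LHCB2 is also the form whose phosphorylation takes part in state transitions, the movement of antenna between the photosystems. LHCB2.1 (AT2G05100) was the gene that rose, with 564, 479 and 489 TPM in DMMTA and 402, 387 and 295 TPM in control. Every DMMTA library was above every control library, and the difference was 0.51 ± 0.14 SE (1.41-fold, adjusted p = 0.0241). The call was lost without DMMTA replicate 1 (adjusted p = 0.0837), replicate 2 (0.0502) or replicate 3 (0.0627), with values between 0.44 and 0.55, and without both replicate 3 libraries (0.0820).

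The other LHCB2 genes had values on the same side of 0 without passing the test. LHCB2.2 (AT2G05070) had 475 ± 56.3 TPM in DMMTA and 412 ± 57.8 TPM in control (0.21 ± 0.13 SE, adjusted p = 0.278). LHCB2.3 (AT3G27690), the least expressed of the major antenna, had 75.1 ± 16.3 TPM in DMMTA and 58.6 ± 17.4 TPM in control (0.37 ± 0.22 SE, adjusted p = 0.231). The LHCB2.3 value passed the test without control replicate 1 (0.60, adjusted p = 0.0419).

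LHCB2.1 and LHCB2.2 are near copies, with 96.6% identity over 798 aligned coding bases, and 204 of the 975 stretches of 75 bases in the LHCB2.1 coding sequences also occur in LHCB2.2. The length of 75 bases was chosen here because the read length is not known. A read lying wholly within a shared stretch cannot by itself be assigned to either gene. How such reads were counted is not given in the sources used here, so the split between these genes is uncertain. The stretch below, coding bases 34 to 93, holds 11 of the 27 columns at which the aligned coding sequences differ, and it is printed because reads over it can tell the genes apart. Sequences are from RefSeq, build TAIR10.1, 5′ to 3′ on the coding (minus) strand, at chr2:1824239-1824298 for LHCB2.1 and chr2:1800237-1800296 for LHCB2.2, and capitals mark the columns that differ.
LHCB2.1: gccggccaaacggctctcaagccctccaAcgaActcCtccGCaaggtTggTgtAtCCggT
LHCB2.2: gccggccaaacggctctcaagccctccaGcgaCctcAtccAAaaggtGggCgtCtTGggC

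The 3 LHCB2 genes summed to 1190, 961 and 1034 TPM in DMMTA and 944, 862 and 691 TPM in control, a ratio of means of 1.28. DMMTA was above control in every library on this scale, but the groups overlapped after median-of-ratios scaling. Fitted as 1 feature, LHCB2 had a difference of 0.36 (95% interval 0.04 to 0.68) and an adjusted p of 0.0914. Within the family, LHCB2.1 made up 48.2 ± 1.45% of the sum in DMMTA and 43.4 ± 1.36% in control, and LHCB2.2 made up 44.8 ± 1.14% in DMMTA and 49.6 ± 0.926% in control (SD, n = 3 each). Neither share overlapped between the groups, and LHCB2.3 held 7.02 ± 0.731% in DMMTA and 6.97 ± 1.18% in control. The shares of a family add up to the whole, so the opposite moves of LHCB2.1 and LHCB2.2 are not separate results. No background over all loci was computed for the overlap of shares, here or in the families below.

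The LHCB1 genes carry most major antenna transcript, and none of the 5 was called. LHCB1.3 (AT1G29930), the highest, had 8439.8, 7409 and 8755 TPM in DMMTA and 8743, 8119.9 and 9731 TPM in control, which overlapped (-0.11 ± 0.13 SE, adjusted p = 0.562). LHCB1.1 (AT1G29920) varied most of the 44 genes within DMMTA, with a coefficient of variation of 30.0% there and 18.2% in control (0.27 ± 0.22 SE, adjusted p = 0.403). Without DMMTA replicate 2 its value was 0.49 (adjusted p = 0.128). LHCB1.4 (AT2G34430) had 875 ± 116 TPM in DMMTA and 738 ± 134 TPM in control (0.26 ± 0.16 SE, adjusted p = 0.268), and 0.09 without control replicate 2. LHCB1.5 (AT2G34420) had 3898 ± 151 TPM in DMMTA and 3883 ± 195 TPM in control (0.01 ± 0.11 SE). LHCB1.4 and LHCB1.5 are 91.4% identical and share 90 stretches of 75 bases, 12.4% of those of each, so they may share reads.

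The LHCB1 sum was 16606 ± 1468 TPM in DMMTA and 16562 ± 1182 TPM in control (SD, n = 3 each). As 1 feature the family had an adjusted p of 0.992 and a 95% interval of -0.31 to 0.32. Within the family the shares of LHCB1.3 and LHCB1.2 did not overlap between the groups. LHCB1.3 held 49.4 ± 0.932% of the sum in DMMTA and 53.5 ± 1.27% in control, and LHCB1.2 held 12.2 ± 0.0763% in DMMTA and 10.7 ± 0.241% in control. LHCB1.2, LHCB1.1 and LHCB1.3 lie in a cluster on chromosome 1 and are 95.6% to 96.4% identical over 804 coding bases, and LHCB1.1 shares 129 of its 730 stretches of 75 bases with the other two. The 60 coding bases from 25 to 84 are shown because 8 of the 47 columns that differ among the 3 genes fall in them. They stand at chr1:10475809-10475868 (minus strand) for LHCB1.1, chr1:10473163-10473222 (minus strand) for LHCB1.2 and chr1:10478095-10478154 (plus strand) for LHCB1.3, in the same build, with capitals again at the columns that differ.
LHCB1.1: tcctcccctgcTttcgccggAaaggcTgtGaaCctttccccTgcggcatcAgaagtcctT
LHCB1.2: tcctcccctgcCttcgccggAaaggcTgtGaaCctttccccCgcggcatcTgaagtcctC
LHCB1.3: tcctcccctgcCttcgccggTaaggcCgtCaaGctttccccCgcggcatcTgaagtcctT

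LHCB3 (AT5G54270), the only LHCB3-type gene, had 2078 ± 248 TPM in DMMTA and 1831 ± 239 TPM in control (0.18 ± 0.14 SE, adjusted p = 0.347). Over the 9 major antenna genes the median difference was 0.21, with 8 values above 0 and 1 below (7 and 2 after median-of-ratios scaling), and 1 call. That median was 0.12 without DMMTA replicate 1 and at most 0.30 with any other library left out.

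The minor antenna proteins LHCB4 (CP29), LHCB5 (CP26) and LHCB6 (CP24) are monomers between the photosystem II core and the trimers. All 5 of their genes had fitted values below 0, between -0.20 and -0.06 with a median of -0.09 (-0.14 without control replicate 2), and none was called. LHCB5 (AT4G10340), the highest, had 2677, 2512 and 2633 TPM in DMMTA and 2819, 2540.3 and 2940.5 TPM in control, which overlapped (-0.08 ± 0.11 SE, adjusted p = 0.592). LHCB4.2 (AT3G08940) was the gene nearest to a call among those that missed it, at an adjusted p of 0.118 and a value of -0.20 ± 0.09 SE. Its levels were 501, 502 and 531 TPM in DMMTA and 608, 583 and 570.3 TPM in control, with no overlap. LHCB4.1 (AT5G01530) had 1293 ± 43.7 TPM in DMMTA and 1376 ± 18.5 TPM in control (SD, n = 3 each), also without overlap (-0.09 ± 0.09 SE, adjusted p = 0.487). The summed LHCB4 level was 1835, 1759 and 1858 TPM in DMMTA and 1976, 1979.6 and 1978 TPM in control, below control in every library also after median-of-ratios scaling. LHCB4.1 and LHCB4.2 fitted as 1 feature had -0.12 (95% interval -0.33 to 0.09, adjusted p = 0.354). LHCB4.1 held 71.1 ± 0.821% of the LHCB4 sum in DMMTA and 69.6 ± 0.895% in control, without overlap. LHCB4.1 and LHCB4.2 are 81.1% identical and share no stretch of 75 bases.

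The photosystem I core genes encode the stromal ridge (PSAD, PSAE), the plastocyanin docking subunits (PSAF, PSAN), anchors of the light-harvesting proteins (PSAG, PSAK) and the side that receives antenna in state transitions (PSAH, PSAL, PSAO). None of the 12 was called. Their fitted values ran between -0.16 and 0.19 with a median of -0.02, 5 above 0 and 7 below. PSAO (AT1G08380), the highest, had 2914, 2931 and 3025 TPM in DMMTA and 3064, 2563 and 3569 TPM in control. The DMMTA libraries fell inside the control range, and the difference was -0.04 ± 0.14 SE (adjusted p = 0.851). PSAD2 (AT1G03130) was among the genes just outside the threshold, with 331, 331 and 370.0 TPM in DMMTA and 385, 373 and 391 TPM in control (-0.16 ± 0.09 SE, adjusted p = 0.221). Another of these 3 was LHCB1.2 (AT1G29910) of the major antenna, with 2125, 1837 and 2130.3 TPM in DMMTA and 1806, 1661 and 1847 TPM in control (0.20 ± 0.11 SE, adjusted p = 0.212). Control replicate 2 was low for several core genes. PSAK (AT1G30380) had 2319 ± 138 TPM in DMMTA and 2173 ± 409 TPM in control, a value of 0.11 that was -0.06 without control replicate 2, and PSAN (AT5G64040) had 894 ± 26.5 TPM in DMMTA and 792 ± 156 TPM in control, a value of 0.19 that was 0.02 without it. Among the paired copies, PSAH1 held 53.4 ± 0.984% of the PSAH sum in DMMTA and 49.5 ± 1.71% in control, without overlap, while the summed PSAH level was 2045 ± 89.2 TPM in DMMTA and 2085 ± 175 TPM in control. PSAD1 held 75.1 ± 0.610% of the PSAD sum in DMMTA and 73.3 ± 0.893% in control, also without overlap. The PSAD sum was 1385 ± 99.9 TPM in DMMTA and 1435 ± 20.7 TPM in control, and the PSAE sum 1864 ± 123 TPM in DMMTA and 1912 ± 307 TPM in control (SD, n = 3 each).

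The extrinsic proteins PSBO, PSBP and PSBQ shield the manganese cluster of photosystem II that splits water. Their 5 genes had differences between -0.14 and 0.14, and none was called. PSBP1 (AT1G06680), the highest, had 1779, 1685 and 1731 TPM in DMMTA and 1920.1, 1697 and 1724 TPM in control, with overlapping groups (-0.04 ± 0.10 SE, adjusted p = 0.804). PSBQ1 and PSBQ2 had values of opposite sign, -0.14 ± 0.14 SE and 0.14 ± 0.13 SE. PSBQ1 held 46.3 ± 1.05% of their sum in DMMTA and 51.2 ± 3.18% in control, without overlap, and the sum itself was 1770.3 ± 108 TPM in DMMTA and 1784 ± 260 TPM in control. PSBO1 supplied 86.3 ± 0.794% of the PSBO sum in DMMTA and 86.5 ± 0.188% in control.

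The small subunits PSBR, PSBW, PSBX and PSBY sit in or beside the photosystem II core, where PSBR helps to bind the extrinsic proteins. These 4 genes lay closest to 0, with values between -0.04 and 0.003 and 95% intervals all within 1.5-fold. PSBR (AT1G79040), the highest, had 3777, 4270.2 and 4248 TPM in DMMTA and 4143, 3678.5 and 4859 TPM in control (-0.04 ± 0.13 SE, adjusted p = 0.857). The DMMTA libraries lay inside the control range.

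The Rubisco set held the largest fall and the highest level of the 44 genes. RBCS1B (AT5G38430), a small subunit gene, had 1074, 1200.2 and 1283 TPM in DMMTA and 1526, 1601 and 2249 TPM in control. The groups did not overlap and control replicate 3 stood above its group, and the difference was -0.58 ± 0.16 SE (control 1.51-fold above DMMTA, adjusted p = 0.0271). The call was lost without DMMTA replicate 1 (adjusted p = 0.0888), replicate 2 (0.0741) or replicate 3 (0.0544), with values between -0.64 and -0.51. It was also lost without both replicate 3 libraries (-0.46, adjusted p = 0.0546), and when no filter on low values was used (adjusted p = 0.0555).

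RBCS1A (AT1G67090), at another locus on chromosome 1, had 12987, 11356 and 12597 TPM in DMMTA and 12854, 13643 and 15334 TPM in control. DMMTA replicate 1 lay within the control range, and the difference was -0.18 ± 0.13 SE (adjusted p = 0.354). RBCS2B (AT5G38420) had 1736 ± 166 TPM in DMMTA and 1864 ± 304 TPM in control (-0.09 ± 0.14 SE), and RBCS3B (AT5G38410) had 6261 ± 453 TPM in DMMTA and 6196 ± 697 TPM in control (0.02 ± 0.13 SE; SD, n = 3 each).

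RBCS1B, RBCS2B and RBCS3B stand side by side on chromosome 5 and encode nearly the same protein, with 96.7% to 97.3% identity over 546 coding bases, while RBCS1A is 89.9% to 90.1% identical to them. Of the 472 stretches of 75 bases in RBCS1B, 164 (34.7%) also occur in RBCS2B or RBCS3B, so the level of RBCS1B alone is uncertain. Coding bases 91 to 150 are printed because 8 of the 25 columns that differ among the 3 genes fall there. They lie on the minus strand at chr5:15385006-15385065 for RBCS1B, chr5:15381829-15381888 for RBCS2B and chr5:15378157-15378216 for RBCS3B (RefSeq, TAIR10.1), with capitals at the columns that differ. Most of these columns set RBCS3B apart, and RBCS1B and RBCS2B differ only at the end of the stretch.
RBCS1B: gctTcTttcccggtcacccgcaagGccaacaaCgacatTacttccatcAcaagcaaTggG
RBCS2B: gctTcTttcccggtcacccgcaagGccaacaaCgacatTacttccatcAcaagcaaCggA
RBCS3B: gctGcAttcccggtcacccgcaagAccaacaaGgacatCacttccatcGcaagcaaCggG

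Fitted as 1 feature, the 3 clustered genes had a difference of -0.09 (95% interval -0.42 to 0.23, adjusted p = 0.654). Their sum was 9178, 8539 and 9831 TPM in DMMTA and 9227, 8888 and 11439.9 TPM in control, which overlapped. Within that sum RBCS1B held 12.9 ± 1.18% in DMMTA and 18.1 ± 1.56% in control, and RBCS3B held 68.2 ± 0.364% in DMMTA and 63.0 ± 1.80% in control, neither with overlap (SD, n = 3 each). RBCS2B held 18.9 ± 0.820% in DMMTA and 18.9 ± 0.475% in control. RBCS1B passed the test, and the cluster as a whole did not.

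**Figure D3:**
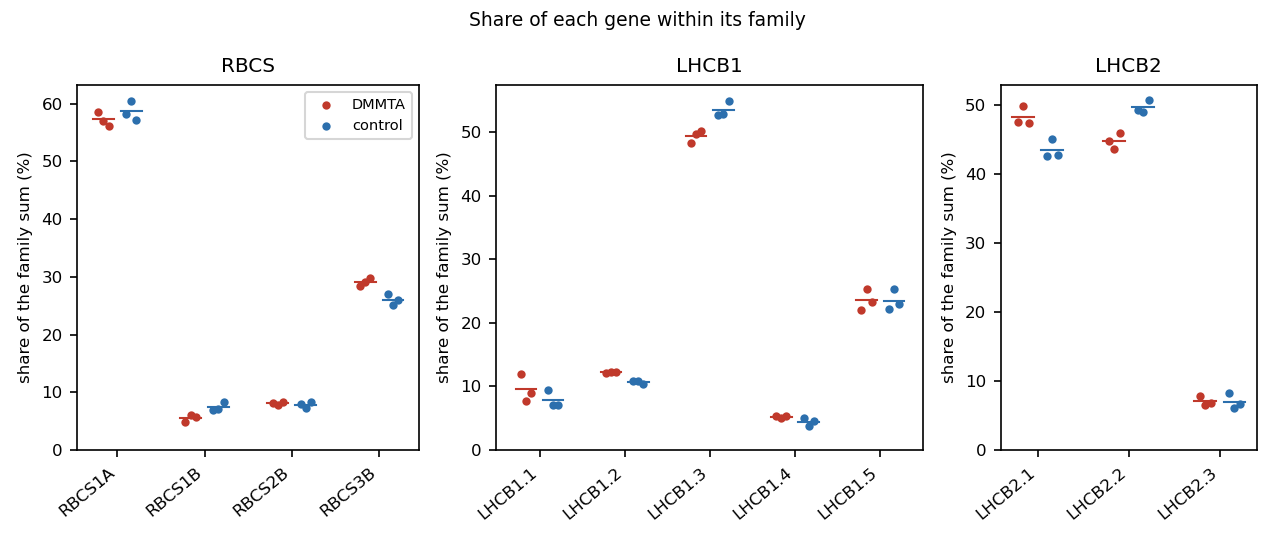
Share of each gene in the summed TPM of its family, in percent, for the RBCS, LHCB1 and LHCB2 families. Points are libraries and lines are group means. RBCS1B, LHCB1.3 and LHCB2.2 had lower shares and RBCS3B, LHCB1.2 and LHCB2.1 higher shares in every DMMTA library than in any control library. Shares of a family add up to the whole and do not move independently, and no background over all loci was computed for them.

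RCA (AT2G39730) is a single gene that shares no stretch of 75 bases with another locus. It had 951, 825 and 884 TPM in DMMTA and 1191, 1034 and 1257 TPM in control. Every DMMTA library was below every control library, and the difference was -0.39 ± 0.11 SE (control 1.31-fold above DMMTA, adjusted p = 0.0323). The call was lost without DMMTA replicate 2 (adjusted p = 0.127), DMMTA replicate 3 (0.103), control replicate 1 (0.0867) or control replicate 3 (0.0694), without both replicate 3 libraries (0.170), and with no filter on low values (0.0577). Across all settings tried its value stayed between -0.47 and -0.32.

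Summed over each complex, the DMMTA and control libraries overlapped in all 7 sets. The 44 genes together had 84784 ± 4471 TPM in DMMTA and 87305 ± 6806 TPM in control, which was 7.97% to 8.79% of a DMMTA library and 8.06% to 9.42% of a control library. The photosystem I antenna had 8373 ± 220.1 TPM in DMMTA and 8131 ± 532 TPM in control, and the photosystem I core 16084 ± 751 TPM in DMMTA and 16144 ± 1676 TPM in control. The ratio of means was 1.03 for the antenna and 0.996 for the core, and after median-of-ratios scaling 0.996 for the antenna and 0.962 for the core. In photosystem II, the major antenna had 19746 ± 1788 TPM in DMMTA and 19225 ± 1197 TPM in control, and the minor antenna 5694 ± 177 TPM in DMMTA and 6075 ± 320.0 TPM in control. The oxygen-evolving complex had 5206 ± 202 TPM in DMMTA and 5303 ± 417 TPM in control, and the small subunits 7298 ± 301 TPM in DMMTA and 7471 ± 799 TPM in control. Rubisco with its activase had the lowest ratio, 0.897, at 22383 ± 1443 TPM in DMMTA and 24956 ± 2667 TPM in control (SD, n = 3 each), with control replicate 3 highest of all libraries at 28031 TPM. After median-of-ratios scaling the ratio was 0.866 for the Rubisco set and 0.938 for all 44 genes (0.971 on the TPM scale). For the major antenna it was 0.993 (1.03 on the TPM scale), so the side of 1 depends on the scaling there and in the photosystem I antenna.

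**Figure D4:**
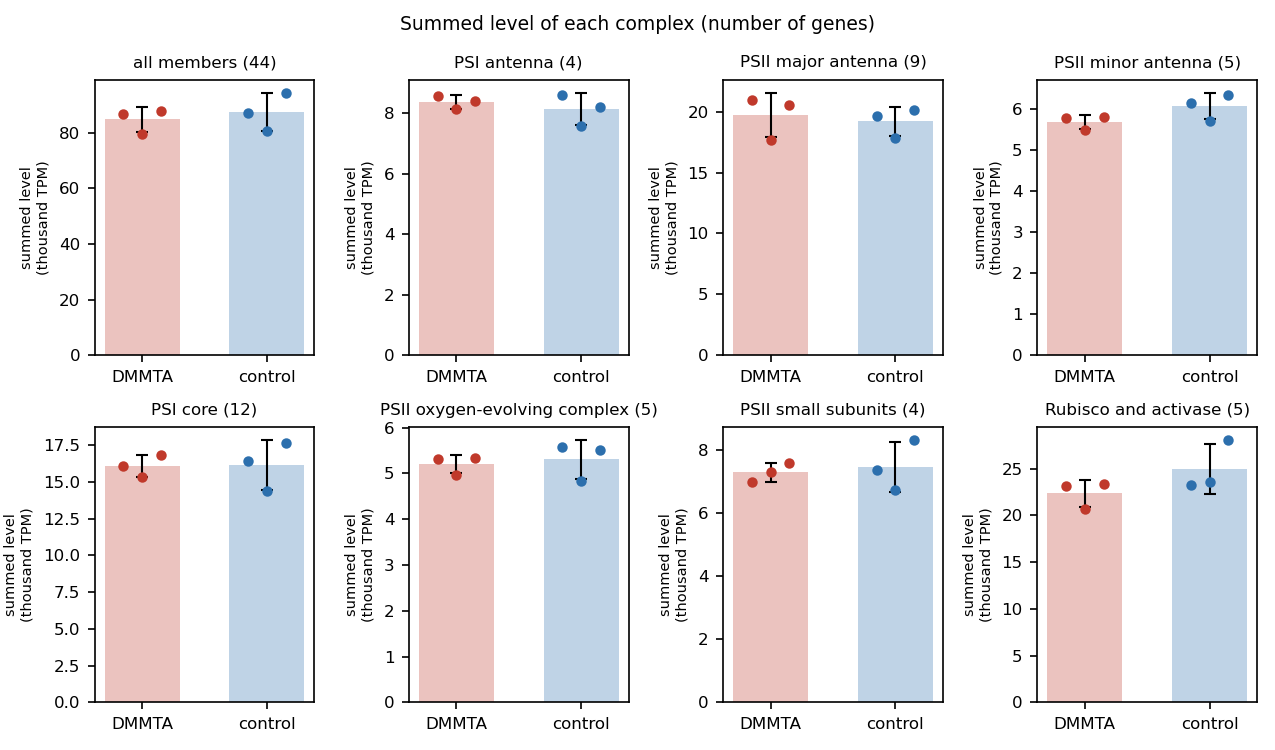
Summed TPM of all 44 genes and of each complex. Bars are group means, error bars are SD (n = 3) and points are libraries, with DMMTA on the left of each panel and every axis starting at 0. The points of the groups overlap in every panel, and the minor antenna (ratio 0.937) and the Rubisco set (0.897) show the lowest DMMTA means relative to control. After median-of-ratios scaling, not drawn, these ratios were 0.906 for the minor antenna and 0.866 for the Rubisco set.

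Genes that act beside these complexes were read from the same fit, in lists of 178 genes in 12 groups. The lists were chosen with earlier results of these data known, so a share called in a list is a description with no test. Counts in 1 direction are read against the 17.4% of all loci that were higher and the 10.5% that were lower in DMMTA. Chlorophyll synthesis had 1 lower call among 22 genes tested, CHLD, the D subunit of magnesium chelatase (-0.26 ± 0.08 SE, adjusted p = 0.0469), and that call was lost without DMMTA replicate 1, 2 or 3 or control replicate 1 or 2 (adjusted p 0.101 to 0.170), without both replicate 3 libraries (0.123) and with no intensity trend in the fit (0.0831). Electron transport and ATP synthase had 1 higher call among 15, FD1, a leaf ferredoxin (0.63 ± 0.15 SE, adjusted p = 0.0126, and 0.0578 without DMMTA replicate 3). The Calvin-Benson cycle had 4 lower calls among 19 (21.1%, against 10.5% of all loci) and none higher, with a median difference of -0.07. All 4 lower calls were lost without both replicate 3 libraries, and 2 were left with no intensity trend. CP12-2, a linker that holds phosphoribulokinase and glyceraldehyde-3-phosphate dehydrogenase in an inactive complex, had 17.4, 34.3 and 20.6 TPM in DMMTA and 39.3, 38.5 and 95.1 TPM in control (-1.17 ± 0.36 SE, adjusted p = 0.0435). Control replicate 3 was the high library, and without it the value was -0.74 (adjusted p = 0.0862). The call was also lost without DMMTA replicate 1 (adjusted p = 0.137) or 3 (0.127), with no filter on low values (0.0770) and with no intensity trend (0.0573). FBA1, a plastid aldolase, fell by 0.43 ± 0.09 SE (adjusted p = 0.00680), and that call was lost without both replicate 3 libraries (0.0515). The other 2 that fell were PRK (-0.41, adjusted p = 0.0107, and 0.0536 without DMMTA replicate 3) and GAPA-1 (-0.39, adjusted p = 0.0297), named here after their values were seen. GAPA-1 lost its call without DMMTA replicate 2 (adjusted p = 0.0677), DMMTA replicate 3 (0.128) or control replicate 3 (0.0598), and with no intensity trend (0.0503), so the list had 1 lower call without DMMTA replicate 3 and 2 without control replicate 3. Photorespiration had 1 lower call among 12, GOX2, a peroxisomal glycolate oxidase and close copy of its neighbour GOX1, with which it may share reads. It had 146, 161 and 151 TPM in DMMTA and 217, 217 and 259.8 TPM in control (-0.59 ± 0.10 SE, adjusted p = 0.00312). With median-of-ratios scaling there were 3 lower calls in chlorophyll synthesis and 2 in photorespiration, and 2 in photorespiration also with FPKM or without control replicate 2 or 3.

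The largest rises in these lists were those of 2 photoprotection genes. In the photoprotection list 2 of 15 were called, both higher (13.3%, against 17.4% of all loci), and the median over the list was -0.13. There was also 1 lower call with a filter at 10 TPM, after median-of-ratios scaling and with the 44 genes left out of the total (STN8 in each), and without control replicate 2 (OHP1), both named after their values were seen. The 2 that rose were the early light-induced proteins, relatives of the LHC proteins known to accumulate under light stress. ELIP1 had 62.1, 43.0 and 40.1 TPM in DMMTA and 12.2, 10.8 and 15.8 TPM in control (1.85 ± 0.19 SE, adjusted p = 0.000223), and ELIP2 had 22.5, 14.3 and 11.0 TPM in DMMTA and 1.44, 2.00 and 2.35 TPM in control (2.71 ± 0.26 SE, adjusted p = 0.000142). Both stood far above control in every DMMTA library, at levels well under those of the antenna genes per length. In the assembly and repair list, 1 of 20 was higher and 2 were lower. RBCX2, a Rubisco assembly chaperone, had 66.8, 74.4 and 67.0 TPM in DMMTA and 47.7, 47.0 and 49.6 TPM in control (0.52 ± 0.09 SE, adjusted p = 0.00306). CPSRP54 (-0.48 ± 0.11 SE, adjusted p = 0.0125) and CPSRP43 (-0.43 ± 0.12 SE, adjusted p = 0.0269) belong to the chloroplast signal recognition particle that delivers LHC proteins to the thylakoid. The CPSRP54 call was lost without DMMTA replicate 3 (adjusted p = 0.0591) and the CPSRP43 call without DMMTA replicate 1, 2 or 3 (adjusted p 0.0673 to 0.0935), and neither was kept without both replicate 3 libraries (0.0772 for CPSRP54 and 0.0750 for CPSRP43). Among 7 tested relatives of the photosystem proteins, LHCA6, which links photosystem I to the NDH complex, was the only call (-0.52 ± 0.14 SE, adjusted p = 0.0236, 0.0582 to 0.0834 without a DMMTA replicate, and 0.103 without both replicate 3 libraries).

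**Figure D5:**
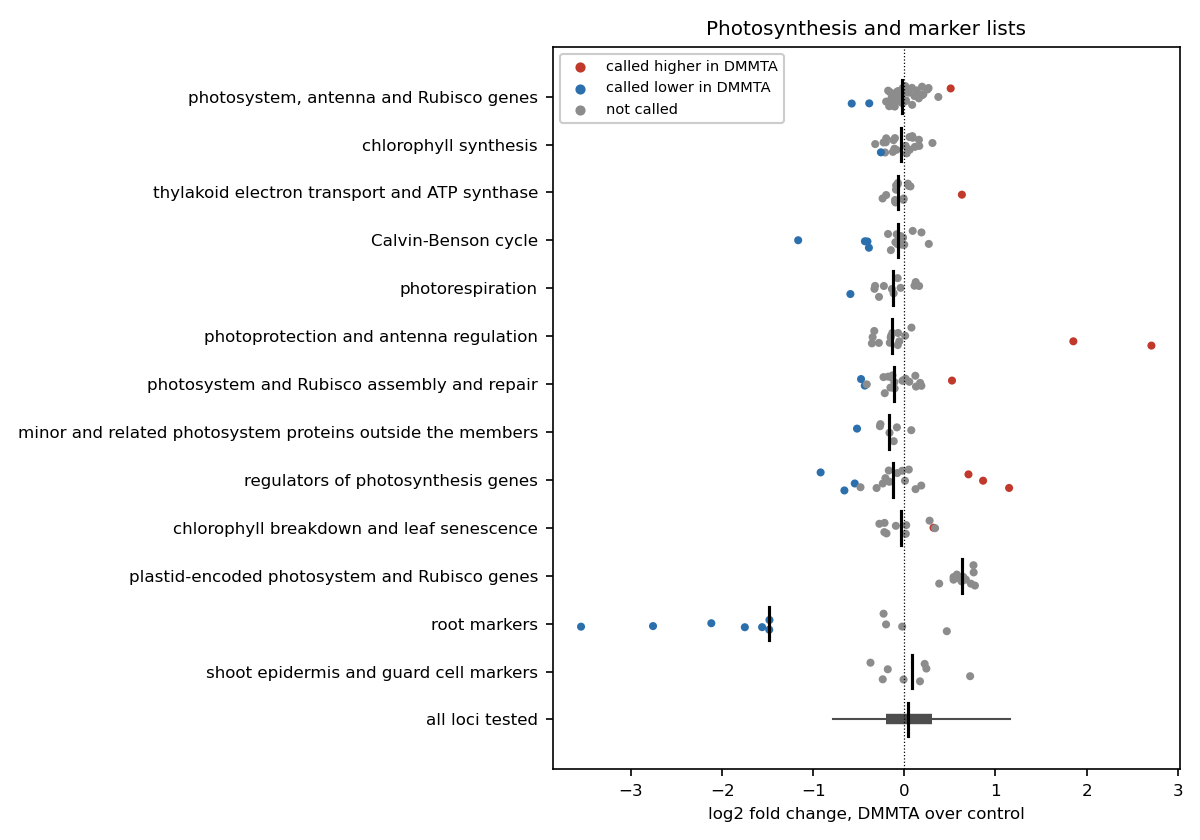
Log2 fold change, DMMTA over control, of the 44 genes and of each other list, with all loci tested at the bottom. Points are genes, coloured by the limma call, and black ticks are list medians. For all loci the thick bar runs between the quartiles and the thin line between the 5th and the 95th percentile. ELIP1 and ELIP2 lie at 1.85 and 2.71, root markers have a median of -1.48, and the 44 genes keep between -0.58 and 0.51.

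Regulators of these genes were called in both directions, 6 of 18 tested (33.3%, against the background of 27.9%), with a median of -0.12. HYH had 33.0, 27.2 and 25.2 TPM in DMMTA and 15.3, 9.01 and 14.0 TPM in control (1.15 ± 0.20 SE, adjusted p = 0.00310), and its partner HY5, a light-signalling bZIP factor, 66.2, 54.4 and 61.4 TPM in DMMTA and 36.9, 22.7 and 42.7 TPM in control (0.86 ± 0.21 SE, adjusted p = 0.0165). The HY5 call was lost without DMMTA replicate 1 (adjusted p = 0.0610) or 3 (0.0569). The GATA factors CGA1 and GNC, which promote chlorophyll synthesis and chloroplast growth, fell by 0.92 ± 0.18 SE (adjusted p = 0.00558) and by 0.66 ± 0.13 SE (adjusted p = 0.00722), and CGA1 had 1.04, 0.891 and 1.04 TPM in DMMTA and 1.79, 2.48 and 2.76 TPM in control. The CGA1 call was lost without both replicate 3 libraries (adjusted p = 0.0555), and its DMMTA levels lay near the filter of 1 TPM. The other 2 called were SIG5, a plastid sigma factor (0.70), and GLK1, an activator of antenna genes (-0.54), both named after their values were seen. GLK1 had 39.2, 42.4 and 43.4 TPM in DMMTA and 61.1, 70.8 and 52.2 TPM in control, with no overlap (adjusted p = 0.0116). ABI4 was listed at 0 in every library, and CCA1 and LHY were under the filter. In the list of chlorophyll breakdown and senescence, 1 of 10 was called, ACD2, which reduces a red chlorophyll breakdown product (0.32 ± 0.10 SE, adjusted p = 0.0456), and that call was lost in 9 of 18 alternative settings, among them the omission of control replicate 1 or 2 or of any DMMTA replicate (adjusted p 0.0776 to 0.179).

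The 14 plastid-encoded genes listed were photosystem and Rubisco genes, with PETA, PETB and PETD of electron transport. None of the 14 was called when replicate numbers were not paired, and none had an unadjusted p under 0.05. Their median difference was 0.63, but they varied strongly between libraries. RBCL, the Rubisco large subunit and the gene with the lowest adjusted p, had 81.9, 187 and 268 TPM in DMMTA and 29.8, 217 and 128 TPM in control (0.76 ± 0.68 SE, adjusted p = 0.441). The 14 genes summed to 463 to 1502 TPM in DMMTA and 194 to 1519 TPM in control. The libraries were poly(A)-selected, per the labels' protocols, and the part of that step in these levels was not tested.

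Some markers of other tissues moved beside these results. These lists too were chosen with earlier results of these data known, so the shares called in them are descriptions. Of 11 root markers 7 were lower (63.6%, against 10.5% of all loci) and none higher in DMMTA, with a median of -1.48 (MYB36 was higher without control replicate 1, adjusted p = 0.0460), among them IRT1, the root iron transporter, with 9.89, 6.83 and 6.74 TPM in DMMTA and 136, 69.9 and 91.6 TPM in control. PRP3, a root hair cell wall protein, had 4.23, 8.15 and 6.16 TPM in DMMTA and 38.5, 58.4 and 36.2 TPM in control. The 7 were COBL9, EXPA7, EXPA18, PRP3, LRX1, CASP1 and IRT1, and the CASP1 call was lost without both replicate 3 libraries (adjusted p = 0.0598). COBL9 had 1.01, 0.793 and 0.656 TPM in DMMTA and 3.20, 3.85 and 3.11 TPM in control. It lay near the filter of 1 TPM in DMMTA and was tested only through its control levels. Its difference ran between -1.93 and -0.93 over the alternative settings. SCR (-0.23 ± 0.15 SE, adjusted p = 0.284), SHR (-0.20 ± 0.14 SE, adjusted p = 0.330), MYB36 and PYK10 were not called, so the fall did not hold for all root markers. No root marker was at 0. The markers summed to between 1952 and 2549.5 TPM in DMMTA and between 2259 and 3077.4 TPM in control, and most of that sum was PYK10, an ER body glucosidase of roots that was not called. Of the shoot epidermis and guard cell markers, 8 of 9 passed the filter and none was called. GC1, a guard cell marker, had the lowest adjusted p, with 167, 91.7 and 127 TPM in DMMTA and 93.2, 57.6 and 80.5 TPM in control (0.72 ± 0.24 SE, adjusted p = 0.0507). GC1 passed the test as higher with a pseudocount of 2 (adjusted p = 0.0492), with nuclear loci only (0.0422), and without DMMTA replicate 2 (0.0198) or control replicate 1 (0.0376). The part of root and shoot makeup in the differences of the 44 genes was not tested.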

How the data were processed

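RNA was sequenced from 6 libraries of whole seedlings, 3 per group, grouped by the labels. The libraries were strand-specific and poly(A)-selected, per the labels' protocols. Each deposited table lists coding sequences, and the authors gave every one an RPKM, an FPKM and a TPM value, per the file headers. DESeq2 stands in the submitters' processing notes, without its version or use. Not given in the sources used here are the aligner, the counter, the build and any filter. Rows with displaced or emptied cells, 3.90% of each table, were left out. Depth is unknown beyond the estimate from steps between low values, of which 88.4% to 93.2% lay within 0.2 read of a whole number.

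RPKM was summed per locus and rescaled to 1000000 per library, which is called TPM here. It differed from the deposited TPM by at most 1.06% where that was above 5. A locus was tested when 3 or more libraries had 1 TPM or more. The fit used limma 3.58.1 under R 4.3.3, on log2(TPM + 0.5), without covariates and with an intensity trend in the empirical Bayes step. Tests were two-sided, with Benjamini-Hochberg adjustment over all loci. The files hold no counts, so no count test was run. The fit code was also run on simulated data, with residual spreads shuffled over loci and few loci changed. That setting differs from these data, so no result here rests on it.

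Loci were matched to RefSeq TAIR10.1 by locus tag, and its coding sequences gave the identities, the shared stretches and the printed bases. The number of rows per locus matched that annotation for 26443 of 26551 loci. Coordinates are those of TAIR10.1 and not of the files.

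The members and lists were chosen with earlier results of these data known. Values in every library are given for called members and for the highest member of each complex by the mean over all libraries. Other lists are represented by up to 2 largest called changes in each direction, or by the gene with the lowest adjusted p where none was called. The 3 members next in adjusted p after the called ones are also given in every library. Sums, shares and medians are descriptions with no test. Figures were drawn with matplotlib 3.10.9.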

Additional observations from a re-analysis of the deposited data

How the results depend on the processing

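Results were recomputed under up to 18 alternatives (genes merged into a family or under a stricter filter have 17): another filter on low values or none, pseudocounts of 0.1 and 2, FPKM, median-of-ratios scaling, nuclear loci only, a total without the 44 genes, merged families, the replicate block, no intensity trend, each library left out in turn and both replicate 3 libraries left out. No called value changed sign. The use of displaced rows was not run, because those rows have lost their locus tag.

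The count of the 44 genes called higher, 1, was 0 with families merged and without both replicate 3 libraries, 2 with the replicate block, and 0 to 2 when 1 library was left out. The count called lower, 2, was 0 with no filter and without both replicate 3 libraries, 1 with families merged, and 0 to 2 when 1 library was left out. Over all loci, 2076 to 3138 were higher and 1132 to 1577 lower when 1 library was left out, 1843 and 847 without both replicate 3 libraries, and 1076 were lower with a filter at 10 TPM. In the other lists together 8 of the 178 listed genes were higher and 19 lower, not all of the 178 being tested. Over all loci tested 17.4% were higher and 10.5% lower. The counts in the lists were 5 to 9 higher and 12 to 22 lower when 1 library was left out, and 9 were lower without both replicate 3 libraries. The photosystem I core median ran between -0.0641 and 0.0600 when 1 library was left out, the highest being without control replicate 3. Leaving out libraries leaves fewer samples and merging leaves fewer genes, and beyond that the cause was not tested.

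The replicate numbers were not taken as pairs. Deviations of same-numbered libraries correlated at 0.243, 0.334 and 0.0824 over loci, and each library correlated best with its own number, which is a hint from the data and not from the design. With the replicate block 3539 loci were higher and 2242 lower, and of the 44 genes 2 were higher (LHCB2.1, and LHCB2.3 at an adjusted p of 0.0355) and 2 lower. With the block PSAA, PSAB and PSBC of the 14 plastid-encoded genes were higher (adjusted p 0.0442 to 0.0496), GC1 was higher (0.000835), and HEME2, LIL3:1 and SIG4 were lower (0.0464, 0.0492 and 0.0324), while CHLD (0.0761) and ACD2 (0.0514) lost their calls. With 3 libraries per group and no counts, the 95% intervals give the range of each difference. The calls rest on the limma adjusted p over all loci, which is stricter than a single interval.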
